A study of Drosophila melanogaster with 2 samples.

Results

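Binding of the zinc finger protein Tiptop (Tio) in Drosophila melanogaster embryos was examined at 10 genes that encode structural proteins of the sarcomere. They were sls, bt, Mhc, Prm, up, wupA, Tm1, Tm2, Act57B and Zasp52, and they are 10 of 13945 protein-coding genes on the main chromosome arms. They were chosen by their function in muscle and not by any measured value, but with earlier results of these data known. A gene was said to hold a peak if the summit of a peak lay in its annotated span or in the 1 kb upstream of its 5′ end. By this rule 4 of the 3793 peaks that passed the authors' reproducibility threshold belonged to the 10 genes, 1 at sls, 2 at Tm1 and 1 at Zasp52. The other 7 genes held none.

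Chromatin immunoprecipitation with sequencing was done on whole embryos of both sexes, 4 to 24 h old, from a stable transgenic line, tio-GFP, that makes Tio with GFP fused to its C terminus, and the precipitation used an antibody against GFP. The single group had 2 biological replicates, so no condition was compared with another, and the control library is not analysed here. The embryos were whole, so a signal cannot be assigned to muscle cells, and a peak found in few cells cannot be told apart from a weak one found in many. Chromatin had been sonicated to fragments of 200 to 800 bp, and the depth of the libraries is not known.

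Each deposited region has a summit and a signal value in the authors' own units, whose scaling no source states. The list of reproducible peaks was made by irreproducible discovery rate (IDR), which compares the ranks of peaks between replicates, and its signals ran from 87.5 to 2078 with a median of 145. The pooled list, made from the reads of both replicates, held 30000 regions with signals down to 29.8, most of them background by design. All 3793 IDR peaks were also in the pooled list with the same signal, and they were its 3793 highest regions. A gene without an IDR peak therefore has no region above 87.5, whatever the gene. A region of the pooled list that is not an IDR peak is called a weaker region below. Each replicate also had a list of 30000 regions, with medians of 24.7 in replicate 1 and 22.6 in replicate 2. A region was matched between lists where the summits lay at most 100 bp apart.

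The sarcomere is the contractile unit of striated muscle. Thick filaments of myosin slide past thin filaments of actin, and the thin filaments are anchored in the Z-disc. Contraction is switched on by calcium through troponin and tropomyosin on the thin filament. In the fly embryo these genes are transcribed as the body wall muscles differentiate, and the transcription factor Mef2 is a well known activator of many of them. Tio is a paralog of Teashirt, a regulator of trunk identity.

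Of the 10 genes, 3 held an IDR peak (30%), beside 16.2% of all protein-coding genes. The sarcomere genes are long, with a median span of 17327 bp, beside 2166 bp for all protein-coding genes, and a long gene has more room for a peak. Among the 7 of them that span 10 kb or more, 3 held a peak (42.9%), beside 49.0% of all protein-coding genes of that length. The count at the sarcomere genes was thus near that of other long genes. The 10 genes have 37 annotated transcription start sites, of which 4 (10.8%) had an IDR summit within 1 kb, beside 12.6% of all start sites of protein-coding genes. Of these 4, 3 are neighbouring start sites of Tm1 that share the same 2 summits, and the other is that of sls. The median signal of the 4 peaks was 270.2, beside 145 for all IDR peaks. It rests on few values, 2 of them from neighbouring summits at Tm1, and ran from 101 to 307 under other settings on the pooled scale.

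**Figure D1:**
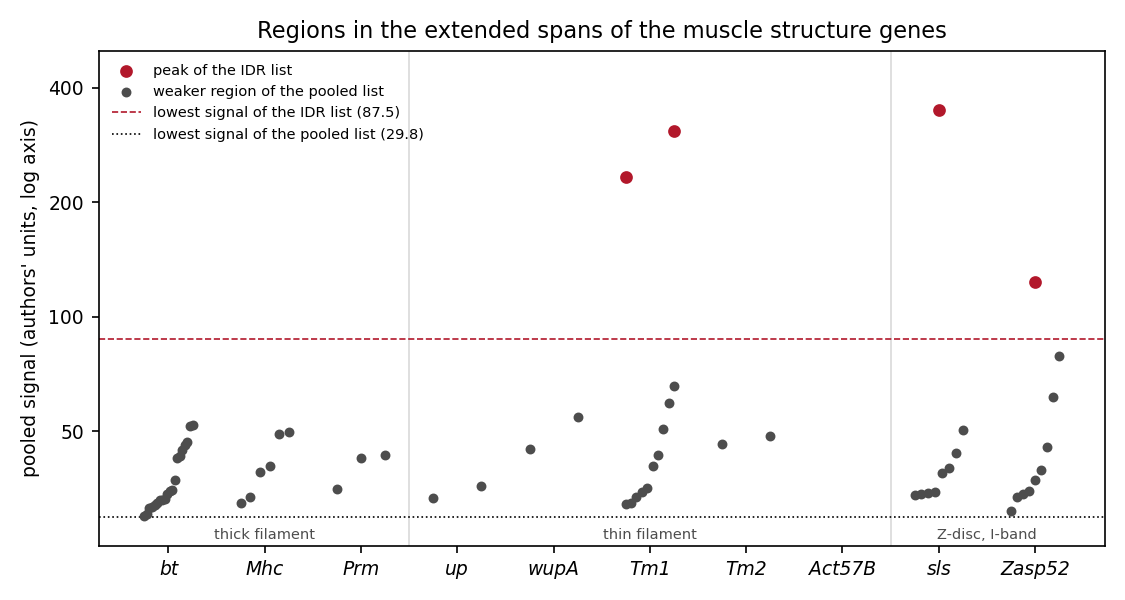
Pooled signal (authors' units, log axis) of every region in the span plus 1 kb upstream of each of the 10 genes, in order of role; red points are IDR peaks, grey points weaker regions, and the lines mark the lowest signal of the IDR list (87.5) and of the pooled list (29.8). The 4 red points at Tm1, sls and Zasp52 lie between 124 and 349, the weaker regions reach 78.6, and Act57B has no point.

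The strongest peak of the group was at sls. The gene encodes Sallimus, a giant elastic protein of the titin family that links the Z-disc to the thick filament across the I-band, and from which the shorter protein Kettin is also made. The gene spans 75931 bp of arm 3L (2039681 to 2115611, minus strand, dm6), and all 13 annotated transcripts begin at its single start site. The IDR summit lay at 2115872, 261 bp upstream of that start site and in no exon of any gene. Its signal was 184 in replicate 1 and 162 in replicate 2, at ranks 438 and 473 of those lists, and 349 in the pooled list. The summits of both replicates lay 6 and 5 bp from the pooled one. The peak ranked 423 of the 3793 IDR peaks, and 88.8% of them had a lower signal. The next start site of any other protein-coding gene, that of zormin, was 35828 bp away.

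The peak was narrow. It was 238 bp wide, while 78.9% of IDR peaks had the same width of 436 bp. Its whole interval is given because it is the strongest binding site of the 10 genes, on the plus strand of dm6 from the RefSeq genome sequence, with the 21 bases centred on the summit in capitals. The gene's first exon begins beyond the left end of this stretch, since sls is read on the minus strand.

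sls, chr3L:2115756-2115993: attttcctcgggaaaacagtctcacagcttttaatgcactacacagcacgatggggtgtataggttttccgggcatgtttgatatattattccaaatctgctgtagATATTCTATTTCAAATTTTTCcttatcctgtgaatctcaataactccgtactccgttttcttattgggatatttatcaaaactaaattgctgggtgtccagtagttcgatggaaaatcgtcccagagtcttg

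The rest of sls looked different from its promoter. The pooled list had 8 weaker regions in the gene, from 34.0 to 50.2 in signal, and all 8 summits lay in coding exons, over 31 kb from the start site. Coding exons make up 73.0% of the span of sls, so most of the gene beyond its promoter is coding. Only 1 of the 8 regions was matched in both replicates, at 22.5 in replicate 1 and 16.7 in replicate 2. The signal of the promoter peak was 349 and that of the highest of them 50.2.

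Zasp52, the other Z-disc gene of the group, encodes a PDZ and LIM domain protein that binds alpha-actinin and helps to assemble the Z-disc. It spans 54440 bp of arm 2R (15762565 to 15817004, minus strand) and has 22 annotated transcripts from 3 start sites. Its IDR summit lay at 15785011, inside the gene and 31993 bp from its 5′ end, within the intron of 20 of the 22 transcripts. The exons on either side were 1545 bp and 18350 bp away and leave 19894 bp between them. The signal was 59.1 in replicate 1 and 59.0 in replicate 2, at ranks 2897 and 2660, and 124 in the pooled list. This was the weakest of the 4 peaks, at rank 2377, and 37.3% of IDR peaks had a lower signal. The nearest start site was the internal one of Zasp52 from which 2 transcripts begin, 8949 bp downstream, and that of tun on the other side was nearly as far, at 8989 bp. Neither gene can be named as the one to which the peak belongs.

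A further region of Zasp52 lay outside the IDR list. Its summit, at 15813348, was 1569 bp downstream of a start site, with a pooled signal of 78.6 (rank 4414, q = 0.0536). Within 100 bp of it, replicate 1 listed a region of 53.7 (rank 3327) and replicate 2 one of 40.3 (rank 4561), but on opposite sides of the pooled summit. The summits of the replicates were 177 bp apart and were not matched to each other. The next, at 15816114, had 34.4 in replicate 1, 28.2 in replicate 2 and 61.6 in the pooled list. Both of these also lay in the extended span of tun, as did 5 more of the 9 weaker regions. The lowest IDR signal and the highest weaker signal at the 10 genes were thus 124 and 78.6, both at Zasp52. The lowest signal of the whole IDR list was 87.5.

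Tm1 encodes a tropomyosin, the coiled-coil protein that lies along the actin filament and covers or frees its myosin binding sites. The same gene also makes cytoskeletal forms outside muscle. It spans 30560 bp of arm 3R (15278220 to 15308779, plus strand), and its 18 transcripts begin at 8 start sites. Both IDR summits of Tm1 lay upstream of a group of 3 internal start sites, from which 11 of the 18 transcripts begin, and not at the 5′ end of the gene. The first summit, at 15281039, had a signal of 168 in replicate 1 and 140.1 in replicate 2, and 307 in the pooled list (rank 547). The second, at 15281239, had 119 in replicate 1 and 109 in replicate 2, and 233 in the pooled list (rank 898).

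These 2 summits were 200 bp apart, at 332 and 132 bp upstream of the first of the 3 start sites. Another IDR summit within 200 bp was present at 2.90% of all IDR summits. The replicate summits lay 7 to 10 bp from the pooled ones, so each replicate resolved the pair by itself. The first peak was 170 bp wide in the pooled list and the second had the usual 436 bp. Both lay in the first intron of the 1 transcript that begins at the 5′ end, and the nearest other gene, l(3)neo43, had its start site 2371 bp from the first summit. The stretch that holds both summits is given on the plus strand of dm6 from RefSeq, with 21 bases at each summit in capitals.

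Tm1, chr3R:15280990-15281288: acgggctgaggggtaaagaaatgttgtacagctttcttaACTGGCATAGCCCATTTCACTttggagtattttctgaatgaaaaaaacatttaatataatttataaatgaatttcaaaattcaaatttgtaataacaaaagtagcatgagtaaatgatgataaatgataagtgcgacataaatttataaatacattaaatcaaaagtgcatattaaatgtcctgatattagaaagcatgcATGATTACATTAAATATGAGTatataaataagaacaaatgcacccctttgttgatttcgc

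Tm1 also held 10 weaker regions, from 32.1 to 65.6 in pooled signal, of which 7 lay in introns. The highest, with its summit at 15292431, had 32.8 in replicate 1, 29.2 in replicate 2 and 65.6 in the pooled list, 1485 bp downstream of the last start site of the gene. Another intronic region, at 15298028, had 23.1 in replicate 1, 33.4 in replicate 2 and 59.4 in the pooled list. These and the region at 50.6 near the start site of l(3)neo43 were the 3 that both replicates listed. At the 5′ end of Tm1 itself, from which 1 transcript begins, the nearest pooled region was that one, 1437 bp downstream.

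The printed Tm1 stretch had a G+C content of 27.8% and that of sls 38.2%. In windows that reached 100 bp to either side of the summit, G+C was 37.3% at sls, 30.3% and 32.3% at Tm1 and 31.8% at Zasp52, beside a median of 33.3% over all IDR peaks. The summit window of Zasp52 lay in a steep dip, with 59.2% and 48.8% in the windows centred 500 bp to either side. That of sls did not, with 36.8% and 27.4% to either side. At Tm1 the flanks had 32.3% and 46.8% at the first summit, and 40.3% and 28.4% at the second. Over all IDR peaks the median was 43.3% on both sides.

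**Figure D2:**
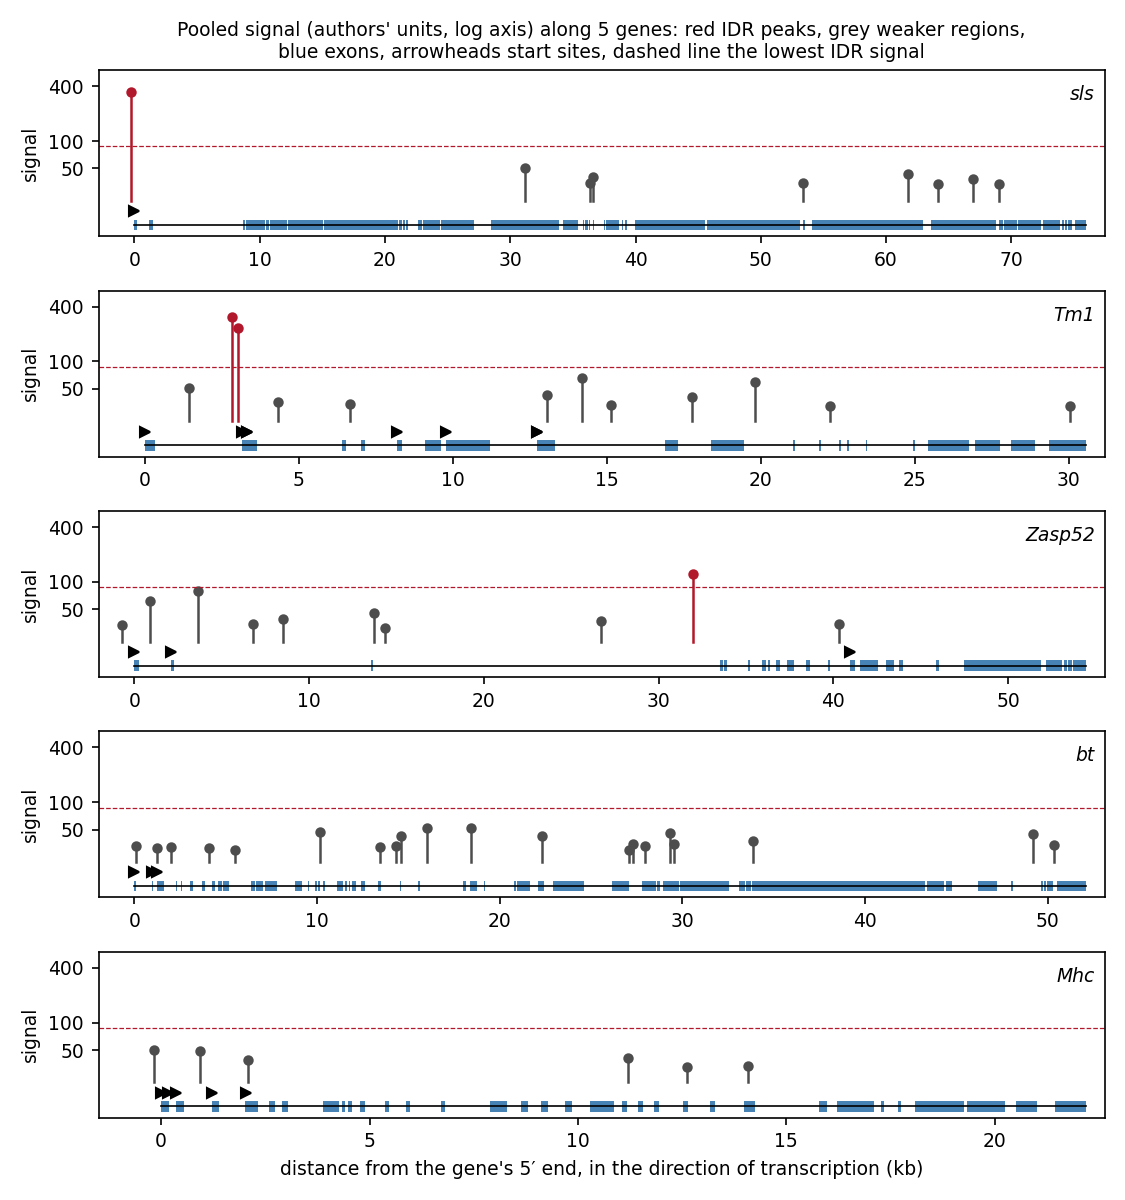
Pooled signal (authors' units, log axis) along sls, Tm1, Zasp52, bt and Mhc, by distance in kb from the 5′ end of each gene in the direction of transcription; red stems are IDR peaks, grey stems weaker regions, blue boxes exons, arrowheads start sites and the dashed line the lowest IDR signal (87.5). The red stems stand upstream of the only start site of sls, 2819 and 3019 bp into Tm1 before its internal start sites, and 31993 bp into Zasp52, while bt and Mhc have grey stems only.

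In both replicates the order of the 4 peaks was the same, with sls highest, the 2 of Tm1 next and Zasp52 lowest. The log2 ratio of replicate 1 to replicate 2 was 0.19 at sls, 0.26 and 0.13 at Tm1 and 0.00 at Zasp52. Over the 3504 IDR peaks matched in both lists its median was 0.16, with quartiles of -0.09 and 0.41, so none of the 4 stood outside the middle of that spread. The IDR list was itself made by comparing these replicates, so the agreement is not independent of how the 4 peaks were chosen. Peaks are not replicates, and whether both lists share a scale is unknown.

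**Figure D3:**
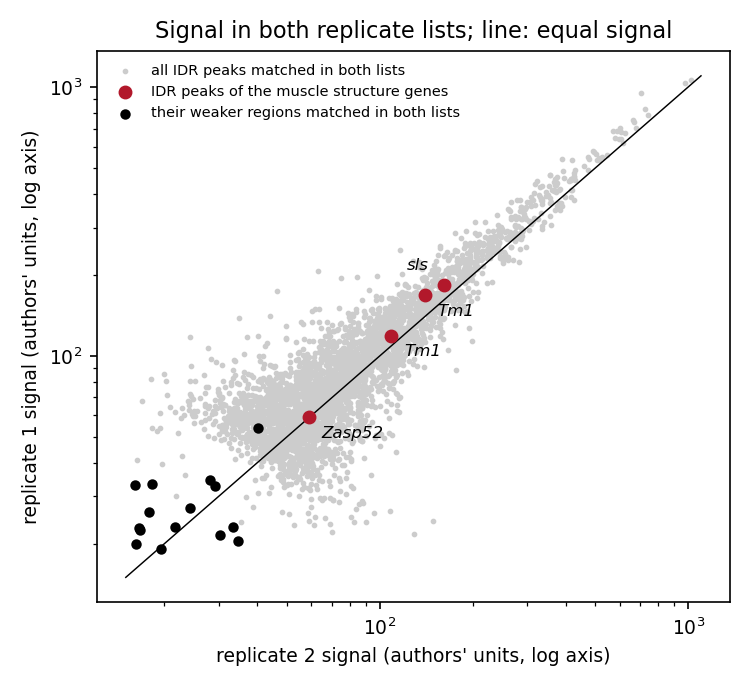
Signal in replicate 1 (vertical) and replicate 2 (horizontal), in the authors' units on log axes; grey points are the 3504 IDR peaks matched in both lists, red points the 4 peaks of the muscle structure genes, black points their 15 weaker regions matched in both, and the line marks equal signal. The red points run from 59.1 to 184 in replicate 1 and from 59.0 to 162 in replicate 2, close to the line, while the black points scatter around it. Red and grey points come from a list made by comparing these replicates, and the black points did not pass into it.

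None of the 3 thick filament genes held an IDR peak. Mhc encodes the only muscle myosin heavy chain of the fly, from which many forms are made by alternative splicing, and spans 22201 bp of arm 2L (16766566 to 16788766, plus strand). Of its 6 weaker regions, 3 lay near start sites, 170 and 289 bp upstream and 32 bp downstream of one, with pooled signals of 49.8, 49.2 and 39.1. In replicate 1 they had signals of 35.2, 24.4 and 20.3, and in replicate 2 none was matched. The best of them ranked 9746 in the pooled list and 6621 in replicate 1. The nearest IDR summit to Mhc lay 27689 bp beyond its extended span, at mdy.

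The gene bt encodes Projectin, a giant kinase of the titin and twitchin family that binds along the thick filament. It spans 52075 bp of the small arm 4 (724400 to 776474, plus strand). With 20 weaker regions it had more than any other of the 10 genes. Per 10 kb it held 3.77 pooled regions, beside 3.80 at Tm1 with its IDR peaks counted, 2.24 over the main arms and 3.75 over arm 4. Their pooled signals ran from 30.0 to 52.0, and 4 of the 20 were matched in both replicates. The highest had 33.5 in replicate 1, 18.2 in replicate 2 and 52.0 in the pooled list. In replicate 2 the highest region of the gene had 34.8 and no match in replicate 1. The nearest IDR summit lay 31098 bp away in Sox102F, which encodes a transcription factor of the Sox family, with a signal of 432, the highest on arm 4.

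Prm encodes paramyosin and miniparamyosin, proteins of the thick filament core, from 12453 bp of arm 3L (8732858 to 8745310, minus strand). It had 3 weaker regions of 35.3, 43.3 and 42.6 in the pooled list, and none was matched in both replicates. The region at 43.3 lay 333 bp upstream of the internal start site and was listed at 27.0 in replicate 2 only. The closest IDR summit, with a signal of 98.7, lay 5240 bp outside the extended span, 1824 bp from the start site of CG13306.

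Among the thin filament genes other than Tm1 no IDR peak was found either. The gene up encodes troponin T, which holds the troponin complex on tropomyosin, from 9105 bp of the X (13593474 to 13602578, minus strand). It had weaker regions of 33.4 and 35.8 in the pooled list. Replicate 1 listed no region in the gene, and replicate 2 listed 3, with signals up to 20. By contrast, wupA, which encodes troponin I, the inhibitory subunit, had 2 weaker regions that were both matched in both replicates. One lay 1025 bp downstream of a start site, with 20.5 in replicate 1, 34.6 in replicate 2 and 54.5 in the pooled list. The other lay 535 bp upstream of the 5′ end (X, 18105568 to 18116922, minus strand), with 23.1 in replicate 1, 21.6 in replicate 2 and 44.8 in the pooled list.

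Tm2, the second tropomyosin gene, starts 1414 bp after the end of Tm1 (3R, 15310193 to 15315197, plus strand). Its regions were nevertheless weak. One, 308 bp upstream of the 5′ end, had 35.9 in replicate 1, no match in replicate 2 and 46.3 in the pooled list. The other, 164 bp downstream of a start site, had 22.9 in replicate 1, 16.5 in replicate 2 and 48.6 in the pooled list. The IDR peaks of Tm1 lay 27954 bp or more from its extended span.

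Act57B encodes a muscle actin of the embryonic and larval body wall. It is the shortest of the 10 genes, at 2411 bp (2R, 20944021 to 20946431, plus strand), and the only one with no region in the pooled list or in either replicate list. The nearest pooled region lay 1259 bp upstream of its start site, outside the 1 kb window, with a signal of 45.9. The nearest IDR summit was 37285 bp from the start site and had a signal of 88.7, close to the lowest of the list.

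Together the 7 genes without an IDR peak had 35 weaker regions, from 30.0 to 54.5 in signal. All 62 weaker regions of the 10 genes had a median signal of 37.3, beside 39.3 for all 26206 weaker regions on the main arms. Of the 62, 15 (24.2%) had a summit of each replicate within 100 bp and 9 of neither, beside 26.5% with both over all weaker regions. In 14 of the 15 the replicate summits were also within 100 bp of each other, and the exception was the Zasp52 region at 78.6. For the 15 the log2 ratio of replicate 1 to replicate 2 ran from -0.75 to 1.05. Per length, the 10 genes together held 2.31 pooled regions per 10 kb, beside 2.18 over all protein-coding genes, so their density was near the background. By gene, pooled regions were found at 9 of the 10 genes, beside 40.3% of all protein-coding genes, a share not matched for length. Of the 37 start sites of the 10 genes, 24 (64.9%) had a pooled region within 1 kb, beside 34.1% of all start sites. Several of the 37 lie so close together that 1 region counts for more than 1 of them, as at Mhc and Tm2.

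By position, coding exons took a large share of the weaker regions. Of the 62, 18 (29.0%) were in coding exons, beside 2.33% of all weaker regions and 0.185% of IDR peaks. Of these 18, 15 were in sls and bt, the 2 giant genes, whose spans are 73.0% and 51.7% coding. The coding exon regions had a median G+C content of 41.5%, and the other weaker regions of the 10 genes 36.3%. Introns held 27 of the 62 (43.5%, beside 45.1% of all weaker regions), promoters, that is within 1 kb of a start site, 16 (25.8% beside 22.3%), and 3 prime UTRs 1.

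Short sequence motifs were counted in the same windows at the summits, of 100 bp to either side, on both strands, where matches of different motifs may overlap. Of the 4 IDR summits, 1 window, at the second Tm1 summit, held an E-box (CANNTG, bound by Twist and Nautilus among others), which 58.0% of all IDR peaks held. None held the Mef2 site searched for (CTANNNNTAG, in 3.35% of IDR peaks), the CF2 site GTATATATA (1.32%), the homeodomain core TAATTA (19.1%), the Trl site GAGAGAG (3.16%) or the DREF/BEAF-32 site TATCGATA (1.48%). TTAAAA was present at sls and Zasp52 (54.0% of IDR peaks), and CAGTGC at Zasp52 (16.4%). With 4 windows these counts carry little weight.

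Among the 62 weaker regions, the Mef2 site was present in 4 (6.45%), beside 2.51% of all weaker regions. They lay in bt, up, Tm1 and Zasp52, with pooled signals of 32.9, 35.8, 35.5 and 34.8, and none of the 4 was matched in both replicates. The Tm1 one was 1003 bp downstream of a start site and that of up 614 bp upstream of one. E-boxes were in 35 (56.5%, beside 62.0%), TAATTA in 8 (12.9%, beside 15.2%) and TTAAAA in 20 (32.3%, beside 39.0%). CAGTGC was in 6 (9.68%, beside 10.6%), and GAGAGAG in 3 (4.84%, beside 2.27%), 1 of them the region 170 bp upstream of Mhc. GTATATATA and TATCGATA were in none (beside 1.24% and 0.633%). The matches to the Mef2 site in 3 of the 4 genes and the Trl match at Mhc are given in capitals, as examples from regions that did not pass the threshold. They have 20 bases to either side, on the plus strand of dm6 from RefSeq. The Mef2 match in Zasp52 and the Trl matches in sls and Tm1 are not printed.

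up, chrX:13600434-13600483: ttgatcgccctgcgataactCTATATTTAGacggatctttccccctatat
Tm1, chr3R:15282489-15282538: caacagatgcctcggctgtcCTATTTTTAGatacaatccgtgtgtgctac
bt, chr4:752304-752353: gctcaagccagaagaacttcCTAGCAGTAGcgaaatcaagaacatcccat
Mhc, chr2L:16766401-16766447: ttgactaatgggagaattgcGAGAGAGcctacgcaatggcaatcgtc

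In up and Tm1 the 4 bases between CTA and TAG were A and T only, as in the form of the site that Mef2 is known to bind, while in bt they held G and C.

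To set the 10 genes in their context, 45 further genes of muscle structure and function were examined, and 17 of them (37.8%) held an IDR peak, beside 16.2% of all protein-coding genes. Of the 22 that span 10 kb or more, 15 (68.2%) held one, beside 49.0% of all protein-coding genes of that length. The 45 genes were listed with earlier results of these data known, and 1 of them was found under another symbol, Unc-89, which the annotation calls Obsc. By role, none of 7 thick filament genes held one (Mlc1, Mlc2, Mf, fln, Obsc, Strn-Mlck and unc-45). With bt, Mhc and Prm this made 0 of 10 thick filament genes. Among the genes of 10 kb or longer, where 49.0% of all protein-coding genes held a peak, this was 0 of 6 thick filament genes, 3 of 6 thin filament genes, 6 of 7 Z-disc genes, 4 of 4 attachment genes and 5 of 6 genes of the last role group below, with the 10 genes counted in. The highest pooled signal at any of the 10 thick filament genes was 77.2, at Mf, which encodes myofilin. The role counts depend on the threshold. With the 7586 highest pooled regions taken instead, 22 further genes held a region and not 17. They include the thick filament genes Mf (77.2), of 10 kb or longer, and Mlc2 (61.9), since a Tm1 region of 59.4 ranked 6786. They also include the Z-disc genes Lasp (80.2) and Mlp84B (69.4). The absence of thick filament genes thus holds at the IDR threshold and not at this looser one. Of the Z-disc genes, only sls held a peak among the stronger 1896 IDR peaks. The highest pooled signals of the others with a peak were 124 at Zasp52, 109 at Actn, 108 at jbug, 101 at cher and 97.2 at Zasp66. In the other roles, if (90.5) and RyR (109) were the genes of 10 kb or longer that dropped out.

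Of 14 thin filament genes, Act87E, TpnC47D, tmod and Fhos held peaks. Of 9 Z-disc genes, Actn, Zasp66, cher and jbug did, and of 9 attachment genes, rhea, if, mew and Tsp. Of 6 genes of the sarcoplasmic reticulum, nuclear positioning and energy supply, RyR, Msp300, Dys, jp and Argk1 did. The Actn summit also lay in the extended spans of CG4313 and usp. The TpnC47D peak had no match in replicate 1, and the highest Tsp peak had none in replicate 2. The role groups were small, and no test of a difference between them was made.

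The 5 with the highest signals were Fhos, Msp300, jp, rhea and tmod. Fhos encodes a formin that assembles actin filaments in muscle and had 442 in replicate 1, 368 in replicate 2 and 817 in the pooled list, 281 bp upstream of a start site (rank 49). Msp300 encodes a giant nesprin that positions muscle nuclei, with 378 in replicate 1, 337 in replicate 2 and 712 in the pooled list, 344 bp upstream of a start site. At jp, which encodes junctophilin of the membrane junctions that couple excitation to contraction, the signals were 192 in replicate 1, 172 in replicate 2 and 375 in the pooled list. At rhea, which encodes the integrin adaptor Talin, they were 182, 155 and 334 in the same order. At tmod, which encodes the pointed end capping protein tropomodulin, they were 181, 143 and 322, with the summit 1440 bp downstream of a start site in an intron. The sls peak (349 pooled) would stand between those of jp and rhea, and the higher one of Tm1 (307) below that of tmod.

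**Figure D4:**
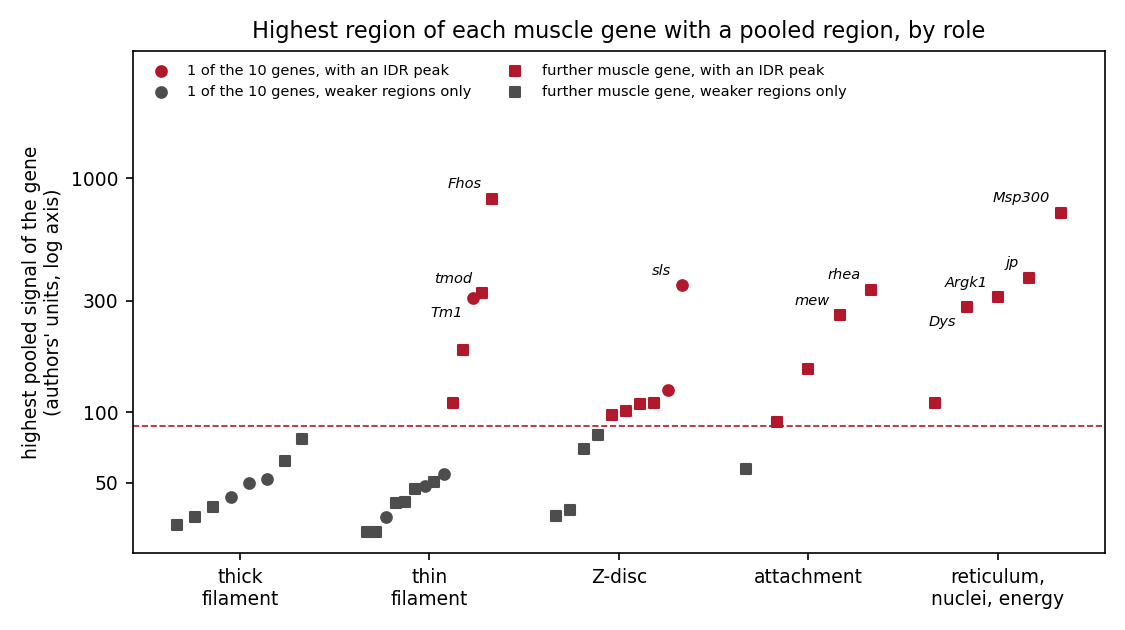
Highest pooled signal (authors' units, log axis) of each muscle gene that has a region in the pooled list, by role; circles are among the 10 genes, squares among the 45 further genes, red means an IDR peak, grey weaker regions only, and the dashed line is the lowest IDR signal (87.5). The thick filament column holds grey points only, up to 77.2, while every other column has red ones. Grey points lie below the dashed line by definition, and the highest is Lasp (80.2) in the Z-disc column.

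The genes most like sls in length and number of peaks were named by a fixed rule, from the 1504 protein-coding genes, sls among them, that held 1 IDR peak. They were toc (76442 bp, signal 160.0, 256 bp upstream of a start site), nvd (76790 bp, signal 109.7, 27941 bp downstream) and ds (74971 bp, signal 202, 586 bp upstream). Their spans differed from that of sls by 0.01, 0.02 and -0.02 on the log2 scale. In toc and ds, as in sls, the only peak lay within 1 kb upstream of a start site. The extended span of no other protein-coding gene held any of the 4 peaks of the sarcomere genes.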

How the data were processed

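The authors deposited peak lists on dm6 and dm3. Only dm6 was used, since the genes are annotated there and no dm3 genome was used. Per the notes deposited with the samples, each replicate list was made from that replicate and 1 control, the pooled list from both replicates and the control, and the thresholded list from these 3 by IDR. No source used here names the aligner, the peak caller or the threshold of the IDR step. The signal values are the authors' own, and the authors' q-values were read from a column of −log10 values.

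Computed here, with Python 3.11.15, pandas 2.3.3 and NumPy 2.4.6, were summit positions (1-based), ranks by signal, matches within 100 bp, and annotation with Ensembl release 115 (BDGP6.54) and the RefSeq genome sequence. Every region ended within the RefSeq arm length. Gene assignment was checked on simulated data. A summit within 1 kb of a start site was classed as promoter, and any other by what it lay in, with UTRs before coding exons and exons before introns.

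The members, lists and motifs were chosen with earlier results of these data known. Named were all 10 genes, genes sharing their peaks, further muscle genes with a peak (the 5 highest with values), and the 3 genes closest to sls in span with the same number of peaks. No statistical test was made: there is 1 group, and peaks and genes are not replicates.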

Additional observations from a re-analysis of the deposited data

How the results depend on the processing

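The 3 genes with a peak stayed 2 or 3 in number under every alternative run. They were sls, Tm1 and Zasp52, of which Zasp52 dropped out in the stronger 1896 peaks and when a summit had to lie within 1 kb of a start site of the gene, and sls when the 1 kb upstream was left out. With the 7586 highest pooled regions the summits at the 10 genes numbered 8 instead of 4, 4 of them at Tm1 and 3 at Zasp52. In the stronger 1896 peaks 10 of the further muscle genes held a peak instead of 17, and 100% of the summits at the 10 genes, instead of 75%, lay within 1 kb of a start site, since the Zasp52 peak was not among them. A shorter list lowers such counts for all genes. The share of all protein-coding genes in the stronger 1896 peaks is not given here, so the drop cannot be set against it. In the 3793 strongest regions of 1 replicate the summits numbered 5 without replicate 2 and 4 without replicate 1, the additional one at Zasp52. Matching at 50 or 200 bp changed none of the 4 matches. The median signal of the summits was 270.2, also when pooled values were read and when the nearest start site had to be that of one of the 10 genes, both of which keep the same 4 peaks. In alternatives added after seeing the data it was 307 in the stronger 1896 peaks and with summits within 1 kb of a start site of the gene, 233 without the 1 kb upstream, and 101 in the 7586 highest pooled regions. It was 119 without replicate 2 and 125 without replicate 1, where the values are those of 1 replicate and not on the pooled scale. No paired analysis was possible because there is 1 group. Since the depth of the libraries is not known, a gene without a peak may hold sites too weak to be listed.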
